A study of Rattus norvegicus with 9 samples.

Results

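Plasma cells, the antibody-secreting end stage of the B cell lineage, were picked out of single-cell RNA libraries of the rat tibial osteotomy site. A cell was taken as a plasma cell when it held at least 10 UMIs (unique molecular identifiers, each standing for a counted RNA molecule) of Jchain, at least 3 of Mzb1, at least 1 of Derl3 and none of Pax5, among barcodes with 200 or more detected genes and no more than 20% of UMIs from mitochondrial genes. This rule found 61 cells among 114232 cells kept of 116711 barcodes. Levels of these 4 genes in the 61 cells are therefore descriptions of the choice and carry no test. Sprague-Dawley rats aged 6 to 8 weeks received a 3 mm circular osteotomy of the proximal tibia and a 4 mm full-thickness wound of the dorsal foot. TO rats had no shock wave, and TOE rats received radial extracorporeal shock waves (rESWT) over the osteotomy on days 2 and 4 after surgery. TO libraries stood for day 2 before any session (TO 2d 0h), day 2 at 4 h, day 4 at 4 h and day 4 at 24 h, and TOE libraries for day 2 at 4 h and 24 h and day 4 at 4 h and 24 h after the session. Each condition was a single library, the number of rats in it was not stated in the sources used here, and TO 2d 24h was not analysed here.

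Plasma cells arise from activated B cells. They shut down the B cell programme governed by Pax5, switch on the regulators Prdm1 (Blimp-1), Irf4 and Xbp1, and enlarge the endoplasmic reticulum so that immunoglobulin can be folded, glycosylated and exported at a high rate. Bone marrow is a long-term home of such cells. IgA-secreting cells are best known from mucosal tissue, and they join IgA into dimers through the J chain that Jchain encodes.

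Of the markers that the rule did not use, Tnfrsf17, Prdm1 and Sdc1 fitted the name, while Irf4 did not set plasma cells apart from B cells. Tnfrsf17, which encodes the plasma cell survival receptor BCMA, had a UMI in 59 of the 61 cells, with 0 to 17 UMIs a cell and a median of 5. Prdm1 had one in 52 cells, with a median of 4 UMIs and a maximum of 48. Sdc1, which encodes the surface proteoglycan CD138, was sparser, with a UMI in 33 cells and at most 4 UMIs. Plasma cells were deeply covered, with a median of 15685 UMIs a cell, so cells were also thinned to 1600 UMIs before shares were compared. After thinning, 37.7% of plasma cells had a Tnfrsf17 UMI (96.7% unthinned), against 0.0808% of B cells (0.264% unthinned) and 0.0269% of neutrophils (0.0685% unthinned). The thinned shares for Prdm1 were 44.3%, 2.25% and 1.84%, and for Sdc1 11.5%, 0.35% and 0.528% (85.2%, 6.29% and 7.26%, and 54.1%, 1.66% and 2.12%, unthinned). For Irf4 they were 13.1%, 22.9% and 0.922% (75.4%, 49.0% and 4.52% unthinned), so that after thinning more B cells than plasma cells had a UMI. Neutrophils should lack the transcripts of Tnfrsf17 and Sdc1, and their share gives the background from free RNA. The B cells used here were 7582 cells with at least 2 Ms4a1 and 1 Cd79a UMIs that were not plasma cells, and the neutrophils 11686 cells with at least 20 UMIs each of S100a8 and S100a9 and no Cd79a. Thinning left out 157 B cells, 519 neutrophils and 0 plasma cells as too shallow.

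B cell surface genes were also detected. Cd79a, a chain of the B cell receptor complex, had 1 to 40 UMIs in every plasma cell. Ms4a1 (CD20) had a UMI in 29 cells with at most 3. Cd74, the invariant chain of MHC class II, had 9 to 151 UMIs a cell. As background from free RNA, neutrophils had 1.66 CPM of Ms4a1 and 71.1 CPM of Cd74 over all libraries, against 41.6 and 3440 CPM in plasma cells. For Cd79a they give none, since they were chosen without it.

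Plasma cells made up less than 0.1% of the kept cells in every library. TO 2d 0h held 9 plasma cells (0.0620%, 95% Clopper-Pearson limits 0.0284 and 0.118%), TO 2d 4h held 9 (0.0588%, 0.0269 and 0.112%), TO 4d 4h held 2 (0.0157%, 0.00190 and 0.0567%), and TO 4d 24h held 12 (0.0851%, 0.0440 and 0.149%). TOE 2d 4h held 11 (0.0649%, 0.0324 and 0.116%), TOE 2d 24h held 6 (0.0416%, 0.0153 and 0.0904%), TOE 4d 4h held 10 (0.0722%, 0.0346 and 0.133%), and TOE 4d 24h held 2 (0.0162%, 0.00196 and 0.0586%). These intervals cover counting error only. Libraries TO 4d 4h and TOE 4d 24h thus held the fewest plasma cells, and TO 4d 24h the most.

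**Figure D1:**
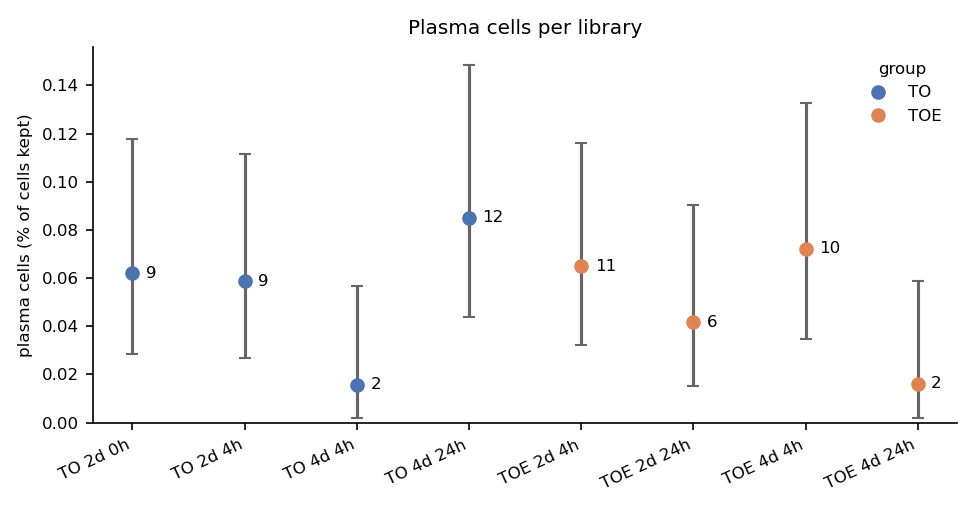
Plasma cells per library. The vertical axis is the share of kept cells in percent, points are libraries coloured by group, bars are 95% Clopper-Pearson intervals that cover counting error only, and the number beside a point is its plasma cell count. All libraries lie between 0.0157% and 0.0851%, and the interval of TO 4d 24h, the highest, reaches down to 0.0440%, under the upper ends of the lowest libraries, 0.0567% and 0.0586%.

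The whole libraries held 12329 to 16945 kept cells and 95954800 to 144146202 UMIs. Median UMIs per plasma cell ranged from 12135 to 20908 across libraries, against 4572 to 5790 over all kept cells and 3999 to 4966 over B cells. Pairs of libraries shared 38 to 108 barcodes, and no plasma cell barcode was shared. At a Scrublet doublet score of 0.25 or more, 7 plasma cells were marked, of which 5 were among the 9 of TO 2d 4h, while TO 4d 4h and TO 4d 24h held 1 each. Markers of other lineages made up at least 1% of the non-immunoglobulin UMIs in 4 plasma cells, 1 in TO 2d 4h and 3 in TO 4d 24h. The most extreme of them, in TO 4d 24h, had 2751 Col1a1 UMIs, and mesenchymal markers took 16.7% of its non-immunoglobulin UMIs. The summed neutrophil markers were 0.167 to 0.369% of these UMIs in plasma cells by library, against 2.14 to 7.51% in all other cells, and Ltf was at 0 in plasma cells. For plasmacytoid dendritic cells, which also express Jchain and Derl3, the markers Flt3, Cd300c and Klk1 were at 0 and the other 6 of 9 had UMIs. Their summed share was 0.0476 to 0.112% of these UMIs in plasma cells by library, against 0.0427 to 0.0584% in all other cells.

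The position of the thresholds mattered little for Jchain and more for Pax5. Of 2210 cells with at least 10 Jchain UMIs, 1038 also had 3 Mzb1 UMIs and 161 of those had a Derl3 UMI. Of these 161 cells, 100 held a Pax5 UMI and were left out. A further 26 cells missed only the Mzb1 threshold, 13 only that of Derl3 and 11 only that of Jchain. Just inside the rule, the lowest plasma cell had 18 Jchain UMIs, and just outside it 1 cell had 5 to 9. Of the 13 cells that missed Derl3 alone, 6 had a Tnfrsf17 UMI and 5 had at least 100 Igha UMIs.

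Antibody transcripts filled a large part of these cells. Immunoglobulin genes took 18.2% of UMIs in the median plasma cell, with a range of 1.08 to 42.8%. Igha, the constant region of the IgA heavy chain, had a median of 1921 and a maximum of 7585 UMIs a cell. In the libraries, Igha in plasma cells ranged from 78540 to 194015 CPM (counts scaled by the summed UMIs of the group of cells), with a median of 126098 CPM. In B cells it ranged from 5.82 to 2956 CPM. No library overlapped, and the share of all genes without overlap was not counted. The highest B cell value was that of TOE 2d 4h. Its B cells also held 1673 CPM of the heavy chain constant gene LOC103692723, against a median of 2.88 CPM over the libraries. Whether the B cells of this library, which is also in the comparison below, included antibody-secreting cells was not tested. Between 21.8% and 83.5% of all Igha UMIs of a library, and between 12.6% and 51.6% of its Jchain UMIs, lay in its plasma cells.

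Most plasma cells that met the rule carried IgA. A heavy chain class was given where 1 constant gene held at least 80% of at least 10 heavy-chain constant UMIs. The call drew on Igha, LOC103692723 and LOC103690146 alone, so a cell of another class could not be named. By this call 49 of 61 cells (80.3%) were of the Igha class, with 275 to 7585 heavy-chain constant UMIs, and they came from all 8 libraries. A further 5 cells from 3 libraries had LOC103692723, with 1929 to 2623 constant UMIs, and 2 cells had LOC103690146, with 1622 and 4022. RefSeq lists both as constant regions without an isotype name, so none is given here. The remaining 5 cells had 0 to 6 constant UMIs, and every one of them had 110 to 383 UMIs of the gene listed as Ighv. Ighv had a median of 1 UMI in the Igha class and 0 with LOC103692723, but reached 138 and 120 UMIs there. Of the 5 cells without a class, TO 2d 4h held 3, TO 4d 24h held 1 and TOE 4d 4h held 1, and 2 were among the cells with a high Scrublet score. Their Mki67 UMIs (a nuclear protein of dividing cells) ranged from 0 to 43 with a median of 31, against 0 to 22 with a median of 1 in the Igha class, and their median depth was 22986 UMIs against 15323. The rule asked for Jchain, whose median was 676 UMIs in the Igha class and 156 in these 5 cells. It was 162 with LOC103692723 and 489.5 with LOC103690146. Jchain also differed by hour of collection. By library, its median in the Igha class was 250.5 to 500.5 UMIs at 4 h and 1634 to 2409 at 0 or 24 h. The classes were spread unevenly over the hours, and TOE 2d 4h held 3 of the LOC103692723 cells. The part of the hour in the class medians was not tested. Whether the rule favoured IgA cells was not tested.

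Light chain genes also differed between cells. LOC120093161, a constant region that neighbours the lambda constant gene Iglc1 in RefSeq, had 1402, 1694 and 6373 UMIs in 3 cells, and 15 to 466 UMIs in the other 58. The 3 high cells had 0 or 1 UMI over all kappa V genes. The other 58 ranged from 0 to 300 with a median of 15, and 38 of them had at least 10, so a low kappa V count did not set the 3 apart.

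**Figure D2:**
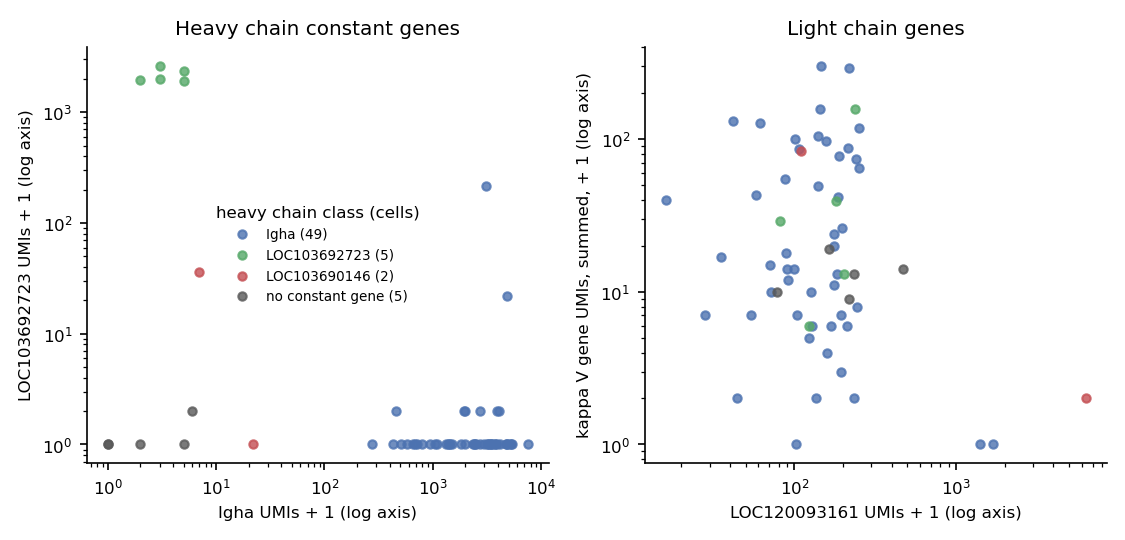
Antibody genes in the 61 plasma cells, on log axes with 1 added. Points are cells, coloured by heavy chain class. The left panel sets Igha against LOC103692723 UMIs, and the right panel LOC120093161 against the summed kappa V UMIs; the 3 cells with at least 1000 LOC120093161 UMIs lie at the bottom right, with 0 or 1 kappa V UMI.

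The V genes differed from cell to cell. A V gene was called where it held at least 80% of at least 10 V UMIs of its locus. A heavy chain V gene was called in 31 cells, which used 15 genes, and 9 of these genes occurred in a single cell. The most common, LOC100360628, was called in 8 cells from 5 libraries. A kappa V gene was called in 31 cells, which used 24 genes, and 18 of these occurred in a single cell. There were 18 distinct pairs of a heavy and a kappa V gene. Just 1 pair, LOC100360628 with LOC690527, occurred in 2 cells, both from TO 4d 24h and both among the cells with other-lineage markers. Reads of near-identical V genes can be split between copies, so these names are uncertain.

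To describe the plasma cell state beyond the choosing genes, UMIs were summed per library over plasma cells and over B cells and compared with edgeR's quasi-likelihood test, with the library as a block. The comparison used TO 4d 24h, TOE 2d 4h and TOE 4d 4h, the libraries with at least 10 plasma cells (n = 3 pairs of sums). Its p-values rest on a variance shared across genes, so a small one does not show that the 3 libraries had similar values. Of 11001 genes tested, 1082 were higher (9.84%) and 1356 lower (12.3%) in plasma cells at an adjusted p under 0.05. The median log2 fold change over all genes was -0.36. With 6 libraries of at least 5 plasma cells, 1516 genes were higher (14.3%) and 2392 lower (22.6%) of 10584. DESeq2 on the same 3 libraries called 898 higher and 624 lower, so that 59.0% of its calls were higher, against 44.4% with edgeR and 38.8% with 6 libraries. Plasma cells had been selected on 3 secretory genes and on the absence of Pax5, so genes that accompany these in single cells may differ through that choice. Jchain, Mzb1, Derl3, Pax5, Ms4a1 and Cd79a chose the cells and were not tested.

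Of 27 regulators and surface genes of plasma cells tested (30 listed), 16 were higher than in B cells and 2 lower, against 9.84% and 12.3% of all genes. The median log2 fold change was 1.52, against -0.36 over all genes. Tnfrsf17 ranged from 256 to 618 CPM in the 8 libraries (median 376 CPM), against 0 to 5.61 CPM in B cells (median 1.23 CPM). The log2 fold change was 7.2 (SE 0.34, edgeR adjusted p = 8.6e-93, n = 3). Prdm1, the repressor that ends the B cell programme, ranged from 208 to 551 CPM (median 315 CPM) against 6.60 to 31.0 CPM, a log2 fold change of 4.80 (SE 0.29). Xbp1, the transcription factor of the secretory response, ranged from 380 to 666 CPM (median 505 CPM) against 41.5 to 62.2 CPM, a log2 fold change of 3.68 (SE 0.27). For these 3 genes no plasma cell library overlapped a B cell library, and the share of all genes without overlap was not counted. Xbp1 was named after its values were seen.

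Other identity genes followed. Slamf7, a surface receptor of plasma and NK cells, rose by 6.71 (log2, SE 0.36), Fkbp11, a prolyl isomerase of the endoplasmic reticulum, by 6.06 (SE 0.29), and Txndc5, a disulfide isomerase, by 5.17 (SE 0.25). Sdc1 rose by 4.07 (SE 0.66, edgeR adjusted p = 1.6e-08) on 27 UMIs in plasma cells. Its libraries overlapped those of B cells (0 to 91.0 CPM against 1.16 to 10.7 CPM), and it was higher in 6 of 8. Irf4, which acts in activated B cells and in plasma cells, was 32.5 to 179 CPM in plasma cells (median 119 CPM) and 86.4 to 232 CPM in B cells (median 194 CPM). Its log2 fold change was 0.01 (SE 0.30, edgeR adjusted p = 0.988), and its sign turned under several alternatives.

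**Figure D3:**
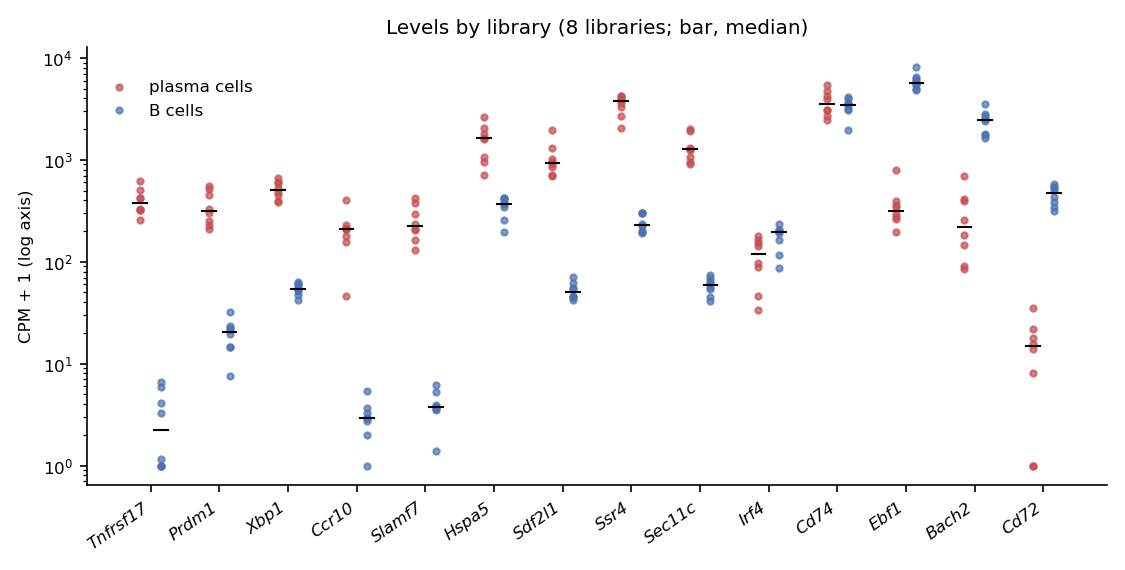
Levels of 14 genes in plasma cells and B cells. The vertical axis is CPM plus 1 on a log scale, points are the 8 libraries and bars their medians. Tnfrsf17, Prdm1, Xbp1, Ccr10 and Slamf7 and the secretory genes Hspa5, Sdf2l1, Ssr4 and Sec11c lie higher in every plasma cell library, Ebf1, Bach2 and Cd72 lower, and Irf4 and Cd74 overlap.

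Genes of the unfolded protein response, which matches the folding capacity of the endoplasmic reticulum to its load, were higher for the most part. Of 36 tested (37 listed), 31 were higher and 0 lower, against 9.84% and 12.3% of all genes, with a median log2 fold change of 2.55. Creld2, a chaperone-associated protein of the endoplasmic reticulum, ranged from 357 to 1538 CPM (median 617 CPM) against 18.3 to 36.3 CPM, a log2 fold change of 5.13 (SE 0.27). Pdia4, a disulfide isomerase, rose by 4.65 (SE 0.29), Sdf2l1, a partner of the chaperone BiP, by 4.47 (SE 0.26), and Hsp90b1, the chaperone GRP94, by 3.73 (SE 0.23). Hspa5, which encodes BiP itself and was named after its values were seen, ranged from 706 to 2607 CPM (median 1622 CPM) against 195 to 419 CPM, a log2 fold change of 2.78 (SE 0.23, edgeR adjusted p = 5.2e-32). Over the alternatives, 27 to 33 genes of the list were higher.

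The endoplasmic reticulum stress element (ERSE) is the sequence through which the stress sensor ATF6 acts on many of these genes. It was searched for in the RefSeq promoters of the rat build GRCr8, from 250 bases before to 50 bases after the listed start, on both strands. The letters searched were CCAAT and CCACG with 9 bases of any kind between them. They occurred in 21 of 27457 promoters (0.0765%). Among genes of the unfolded protein response they occurred in the promoters of Calr, Canx, Creld2, Dnajc3, Ero1b, Hsp90b1 and Hspa5. Since a promoter was found for just 29 of the 37 listed genes, fewer than 80%, a share for the list is void. Of the translocon and export genes, 42 of 50 had a promoter and 0 held the letters, and Xbp1 was the one holder among the regulators. The windows of 4 genes that rose, with the element in capitals, are printed 5′ to 3′ on the strand of the gene to show the element beside the gene it belongs to. It began 43 bases before the start in Hspa5, 176 and 72 bases before it in Hsp90b1, 145 in Creld2 and 65 in Xbp1. In Creld2, and in the nearer element of Hsp90b1, the letters read on the opposite strand. A match is a description of the letters, not a bound site.
Hspa5 (chr3:38452766-38453065, plus strand): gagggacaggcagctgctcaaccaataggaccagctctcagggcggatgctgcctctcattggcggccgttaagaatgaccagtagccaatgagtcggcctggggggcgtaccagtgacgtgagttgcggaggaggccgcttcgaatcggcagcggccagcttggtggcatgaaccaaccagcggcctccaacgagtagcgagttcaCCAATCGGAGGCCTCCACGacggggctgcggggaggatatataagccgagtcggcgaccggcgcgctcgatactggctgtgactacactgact
Hsp90b1 (chr7:23012244-23012543, minus strand): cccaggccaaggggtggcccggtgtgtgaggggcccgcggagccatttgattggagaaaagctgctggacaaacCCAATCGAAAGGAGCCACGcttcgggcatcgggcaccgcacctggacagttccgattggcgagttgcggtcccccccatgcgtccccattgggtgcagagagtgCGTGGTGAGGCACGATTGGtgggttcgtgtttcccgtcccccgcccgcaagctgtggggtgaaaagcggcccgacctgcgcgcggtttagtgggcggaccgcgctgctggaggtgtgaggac
Creld2 (chr7:121789134-121789433, plus strand): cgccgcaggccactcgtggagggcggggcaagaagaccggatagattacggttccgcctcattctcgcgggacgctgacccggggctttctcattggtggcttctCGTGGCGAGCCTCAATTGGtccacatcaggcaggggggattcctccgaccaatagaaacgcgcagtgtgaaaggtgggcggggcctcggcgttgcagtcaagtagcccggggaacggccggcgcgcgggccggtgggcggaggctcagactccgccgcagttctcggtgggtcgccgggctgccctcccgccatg
Xbp1 (chr14:84604373-84604672, plus strand): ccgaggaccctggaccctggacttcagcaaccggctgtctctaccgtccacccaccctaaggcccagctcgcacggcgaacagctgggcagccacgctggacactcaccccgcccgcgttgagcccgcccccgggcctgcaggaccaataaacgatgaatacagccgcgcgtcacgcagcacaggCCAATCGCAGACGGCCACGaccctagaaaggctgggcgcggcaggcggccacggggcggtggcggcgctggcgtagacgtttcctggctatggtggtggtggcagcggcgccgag

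The shorter element ERSE-II (ATTGG and CCACG with 1 base of any kind between them) occurred in 15 promoters (0.0546%), among them those of Dnajb11, Herpud1 and Hyou1. The core of the UPR element (TGACGTGG) occurred in 175 promoters (0.637%), among them those of Hyou1, Txndc11 and the export receptor gene Kdelr3. A single promoter held overlapping motifs. The promoter of Derl3, which chose the cells, held the ERSE. Neither the promoter of Sdf2l1 nor those of Tnfrsf17 and Jchain held any of the 3 letter strings.

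Translocation into the endoplasmic reticulum, glycosylation and export showed a similar picture. Of 48 tested (50 listed), 42 were higher and 0 lower, against 9.84% and 12.3% of all genes, with a median log2 fold change of 2.38, and over the alternatives 38 to 45 were higher. Ssr4, a subunit of the translocon-associated complex, ranged from 2048 to 4266 CPM (median 3773 CPM) against 191 to 302 CPM, a log2 fold change of 4.37 (SE 0.23). Sec11c, a catalytic subunit of signal peptidase, ranged from 904 to 1983 CPM (median 1269 CPM) against 40.1 to 72.9 CPM, a log2 fold change of 4.91 (SE 0.25). Lman1, a cargo receptor between the endoplasmic reticulum and the Golgi, rose by 4.23 (SE 0.28) and Spcs1, another signal peptidase subunit, by 3.94 (SE 0.25). At the other end, Stt3b, a catalytic subunit of the oligosaccharyltransferase, had a log2 fold change of 0.17 (SE 0.30, edgeR adjusted p = 0.746) and Sec63 one of 0.28 (SE 0.27, edgeR adjusted p = 0.50).

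Most genes of the B cell programme were lower. Of 37 tested (40 listed), 27 were lower and 1 higher, against 12.3% and 9.84% of all genes, with a median log2 fold change of -1.49 against -0.36. Over the alternatives 12 to 32 were lower, the fewest when all Cd79a-positive cells served as the comparison. Ebf1, a B lineage factor, ranged from 195 to 791 CPM in plasma cells (median 317 CPM) against 4864 to 8159 CPM, a log2 fold change of -3.09 (SE 0.22). Bach2, which restrains plasma cell differentiation, fell by 2.92 on the log2 scale (SE 0.24), Bcl11a fell by 4.63 (SE 0.42) and Cd72, an inhibitory coreceptor, fell by 4.36 (SE 0.40). No library of these 4 genes overlapped between the cell types, and the share of all genes without overlap was not counted. Cd79b fell by 1.33 (SE 0.25). The gene that was higher was Cd74, with 2474 to 5431 CPM against 1964 to 4131 CPM and a log2 fold change of 0.59 (SE 0.19, edgeR adjusted p = 0.0121). Its libraries overlapped, it was higher in 4 of 8, and the call was lost with DESeq2 (adjusted p = 0.101), without the library block, and when TOE 2d 4h or TOE 4d 4h was left out. Cd74 and Cd79b were named after their values were seen.

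Among non-immunoglobulin genes past an adjusted p of 0.05 with at least 50 CPM in the higher group, the 10 largest rises were those of Ctla4 (log2 7.75), LOC102551030 (7.71), Tnfrsf17, Ccr10 (6.83), Slamf7, Nipal1 (6.56), Cryba4 (6.44), RGD1564712 (6.17), Fkbp11 and Kcnq1 (5.80). Ccr10, the chemokine receptor that guides IgA plasma cells to mucosal epithelium, ranged from 45.5 to 400.1 CPM (median 207 CPM) against 0 to 4.36 CPM in B cells. It had a UMI in 50 of the 61 cells. Ctla4, known as an inhibitory receptor of T cells, had a UMI in 30 cells with up to 24 UMIs in a cell. In the libraries it ranged from 0 to 293 CPM against 0 to 3.37 CPM in B cells, and it was higher in 6 of 8. The T and NK cell markers together reached at most 0.173% of the non-immunoglobulin UMIs of a plasma cell. Of the T and NK list, 2 genes were tested and 0 passed, but with 6 libraries Cd3g, a chain of the T cell receptor complex, was higher (log2 1.99, SE 0.41, edgeR adjusted p = 7.26e-05). Cd3g reached 267 CPM in the plasma cells of TO 2d 4h, against at most 41.9 CPM in B cells of any library. In TO 2d 4h the T and NK markers took 0.0786 to 0.115% in the 3 cells without a heavy chain class. In its other plasma cells they took at most 0.0272%.

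The 10 largest falls chosen in the same way were all of genes with 0 UMIs in the plasma cells of the 3 libraries, and the bounds hold for these 3 alone. Against a floor of 3 counts over the group, Fam169b was at least 20.1-fold lower in plasma cells, Hvcn1, a voltage-gated proton channel of B cells, at least 15.1-fold, Ell3 at least 13.6-fold, Tspan33 at least 13.1-fold and Cd200, a surface glycoprotein, at least 13.0-fold. Slc16a7, a monocarboxylate transporter, was at least 10.6-fold lower, Lrrk2 at least 10.2-fold, Siglec10, an inhibitory lectin, at least 9.84-fold and Ncald at least 9.37-fold. Zfp821, the remaining gene, had 10 UMIs in plasma cells of other libraries, where it reached 32.5 CPM, and its log2 fold change was -2.21 (SE 0.49) with 6 libraries. Over all 8 libraries just Slc16a7 was at 0 in plasma cells, and the other 8 genes had 1 or 2 UMIs.

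**Figure D4:**
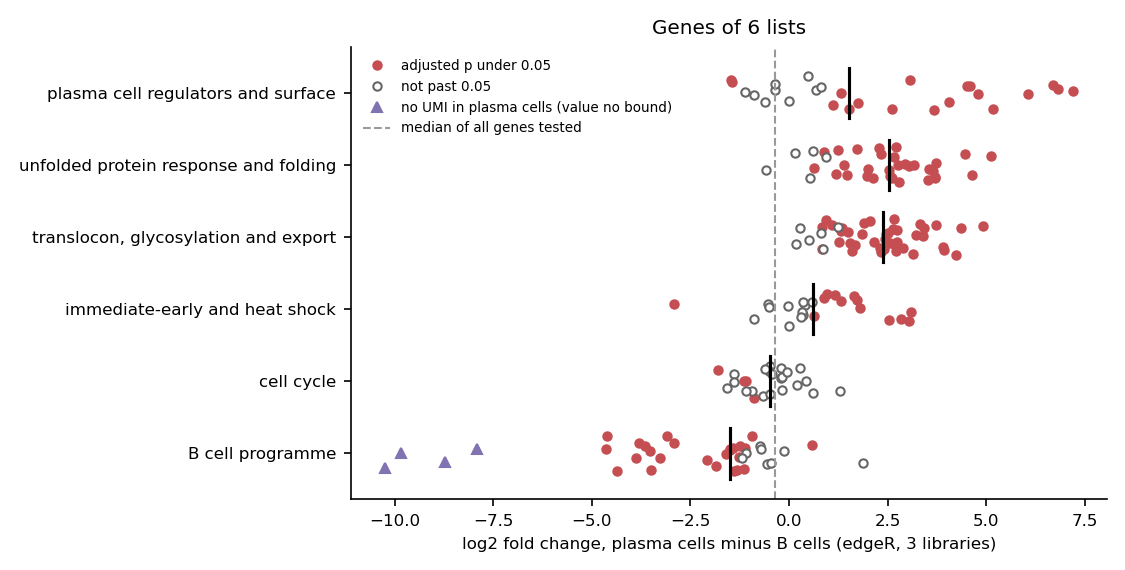
Log2 fold changes of plasma cells minus B cells for the tested genes of 6 lists (edgeR, 3 libraries). Points are genes, filled where the adjusted p was under 0.05, triangles are genes with no UMI in plasma cells, black bars are list medians and the dashed line is the median of all genes tested. The unfolded protein response and translocon lists lie mostly to the right of 0 and the B cell programme to the left.

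Immediate-early and heat shock genes were mixed. Of 24 tested, 12 were higher and 1 lower, against 9.84% and 12.3% of all genes, with a median of 0.61 on the log2 scale, and 7 to 16 were higher over the alternatives. Dnajb1 rose by 3.10 (SE 0.25), Hspa1a by 2.84 (SE 0.22), Hspa1b by 2.53 (SE 0.24) and Fos by 1.66 (SE 0.24). These genes varied widely between plasma cell libraries. Hspa1a ranged from 65.0 to 5058 CPM (median 968 CPM), and for each of the 4 genes the plasma cell libraries overlapped those of B cells. Such genes can also respond to tissue dissociation, whose part was not tested.

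Plasma cells are usually described as non-dividing, and cell cycle genes were detected in them. Of 25 tested, 0 were higher and 4 were lower (12.3% over all genes), with a median of -0.49 against -0.36 over all genes. Over the alternatives 0 to 2 were higher and 1 to 15 lower. Stmn1 fell by 1.14 (SE 0.29), Cenpf fell by 1.81 (SE 0.47), Pcna fell by 1.09 (SE 0.32) and Top2a fell by 0.88 (SE 0.32). DESeq2 called 1 of the 25, and the calls of Stmn1, Pcna and Top2a were lost with it. Mki67 had at least 5 UMIs in 11 plasma cells from 6 libraries, and 0 in 22. The median depth of the 11 was 22986 UMIs against 15294.5 in the others, and 3 of the 11 were among the 7 cells with a high Scrublet score.

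The lists of other cell types differed in direction. Of 6 neutrophil markers tested, 5 were lower, among them S100a9 (log2 -1.44, SE 0.20), S100a8 (-0.92), Camp (-1.24) and Ngp (-0.99). The B cells were not filtered on these genes, and S100a9 was 2791 to 10914 CPM in them against 741 to 1931 CPM in plasma cells. The part that neutrophil RNA among the B cells had in this was not tested. Of 6 erythroid markers 4 were lower, of 6 monocyte and macrophage markers 1, and of 4 pre-B cell markers 2, beside 12.3% of all genes. With DESeq2, without the library block or without TOE 4d 4h, 0 genes of these 3 lists were called, while 1 to 3 neutrophil markers were. Of 4 niche ligands, Mif, a cytokine that binds Cd74, was higher (log2 1.37, SE 0.26), beside 9.84% of all genes, and 0 were lower. Of 6 plasmacytoid dendritic cell markers 2 were higher and 1 lower, beside 9.84% and 12.3% of all genes. They were Runx2 (log2 3.62, SE 0.31), Tcf4 (0.71, SE 0.24) and Irf8 (-2.34, SE 0.48). The Tcf4 libraries overlapped those of B cells, and its call was lost with DESeq2 (adjusted p = 0.142). All 5 mesenchymal markers tested were higher, beside 9.84% of all genes, with Col1a1 at 1.92 (SE 0.27). Without TO 4d 24h, which held the cell with 2751 Col1a1 UMIs, 0 of 5 were called, and DESeq2 called 1.

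The comparison the study was built for, TOE against TO, could be made in 3 pairs of matched day and hour. At 2d 4h the plasma cell share was 1.10 times as high in TOE (11 against 9 cells, exact conditional 95% interval 0.416 to 3.02). With Cd79a-positive cells in place of kept cells as the denominator, this ratio was 0.940 (0.354 to 2.57). At 4d 4h the ratio was 4.59 (10 against 2 cells, 0.979 to 43.1), and at 4d 24h it was 0.191 (2 against 12 cells, 0.0207 to 0.856). The 3 pairs thus went in different directions, and the geometric mean ratio was 0.989. The exact sign-flip test over the 3 log2 ratios, two-sided, gave p = 1.00, where the smallest p this design allows is 0.25. Without the 4 cells with other-lineage markers, the ratio at 4d 24h was 0.254 (0.0267 to 1.23). Without the 7 cells with a high Scrublet score, the ratios were 2.50 (0.742 to 10.8), 9.18 (1.31 to 399) and 0.209 (0.0225 to 0.959). Cells with at least 100 Igha UMIs, whether or not they met the rule, numbered 31 in TOE against 9 in TO at 2d 4h. They numbered 14 against 7 at 4d 4h and 3 against 15 at 4d 24h. The near-equal ratio at 2d 4h thus holds for the rule used here. A single library stood on each side of a pair, so differences between animals and effects of rESWT cannot be told apart.

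Within plasma cells, each pair set few cells against few. With at least 50 UMIs over a pair, 786 genes could be compared at 2d 4h, of which 15.6% differed by 2-fold or more. The pair of 4d 4h gave 398 genes (12.8%) and that of 4d 24h 601 genes (35.9%), all with no test. At 2d 4h the largest differences upward in TOE were LOC120097382 (9 UMIs in TO, 72 in TOE), RT1-A3, an MHC class I gene (7 and 46), and Snx29 (8 and 44). Downward they were Pou2af2 (73 and 0), Egr1 (78 and 4) and Jun (443 and 39). The Pou2af2 UMIs of TO lay in 4 of its 9 cells, and Egr1 and Jun in 7 and 8 of them. At 4d 4h the largest upward differences were the heat shock genes Hspa1b (0 and 444 UMIs) and Hspa1a (2 and 486) and the immediate-early gene Fos (1 and 130), and downward H1f4 (34 and 20 UMIs, 1105 and 141 CPM), Tax1bp1 (26 and 36, 845 and 254 CPM) and Tec (18 and 33, 585 and 233 CPM). The left-out light chain gene LOC120093161 was 60710.5 CPM in TO 4d 4h and 9027 CPM in TOE 4d 4h. TO held 2 plasma cells in this pair. At 4d 24h, where TOE held 2, the upward genes Bag3, Hspb1 and Hsph1 were again of the heat shock response (9 and 68, 18 and 59, and 50 and 149 UMIs). The downward genes Col1a1 (2831 and 1), Hba-a1 (294 and 0) and Col1a2 (1439 and 2) are not plasma cell genes, and 2751 of the Col1a1 UMIs lay in the single TO cell named above. The left-out heavy chain gene LOC103690146 was 16539 CPM in TO 4d 24h and 0 CPM in TOE 4d 24h, with 4001 UMIs in a single TO cell. Bag3 and Hspb1 came from 1 of the 2 TOE cells, and 141 of the 149 Hsph1 UMIs also lay in a single cell.

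No pair had 10 plasma cells in both libraries, so a fit over 6 libraries with at least 5 plasma cells, with terms for group and for hour, was added after the data were seen. For TOE against TO, edgeR called 0 of 1996 genes (0%), 52 higher and 53 lower at an unadjusted p under 0.05, and DESeq2 called 1. Without a filter on low counts, 24 were higher and 39 lower of 13764, and leaving out single libraries gave 0 to 2 calls. The leading gene, Slc16a10, an aromatic amino acid transporter, was 293 to 859 CPM in TOE and 78.9 to 107 CPM in TO, with a log2 fold change of 2.74 (SE 0.35, edgeR adjusted p = 0.0613).

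The hour of collection separated the Jchain level, although not the Igha level. Jchain in plasma cells was 14582 to 32533 CPM in the 4 libraries taken at 4 h and 81012 to 123219 CPM in the 4 taken at 0 or 24 h, without overlap. Igha was 78540 to 194015 CPM and 99550 to 166860 CPM, and these ranges overlapped. Since Jchain chose the cells, its difference by hour is a description with no test. The comparison by hour was not planned, and the share of all genes separated in this way was not counted. Heavy chain V genes took 0.0910 to 0.482% of plasma cell UMIs at 4 h and 0.469 to 0.933% otherwise. Kappa V genes took 0.0325 to 0.171% and 0.156 to 0.979%, and both pairs of ranges overlapped. In the Igha class, the median Jchain UMIs per Igha UMI of the 4 h libraries were lowest with 0.0911 (TOE 2d 4h) and 0.158 (TOE 4d 4h), followed by 0.196 (TO 2d 4h) and 0.212 (TO 4d 4h). The remaining libraries had 0.530 (TOE 4d 24h), 0.697 (TO 4d 24h), 0.728 (TO 2d 0h) and 0.997 (TOE 2d 24h). The highest single cell at 4 h had 0.329, and at 0 and 24 h 1 cell, in TOE 4d 24h with 0.271, lay under it. The same order was seen outside plasma cells. In neutrophils Jchain was 1.74 to 5.54 CPM at 4 h against 10.1 to 24.8 CPM. Neutrophils served above as the background from free RNA, so their values may not be independent of other cells of the library. Cells with at least 3 Siglech UMIs and no Cd79a were taken as plasmacytoid dendritic cells. Their Jchain was 74.4 to 153 CPM at 4 h against 648 to 885 CPM. In B cells the Jchain ranges, 65.6 to 342 CPM and 288 to 903 CPM, overlapped. Mzb1 in B cells was 109 to 179 CPM at 4 h against 200 to 313 CPM, without overlap. Its ranges overlapped in plasma cells, neutrophils and plasmacytoid dendritic cells. The part that library preparation or the time of day had in these differences was not tested.

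**Figure D5:**
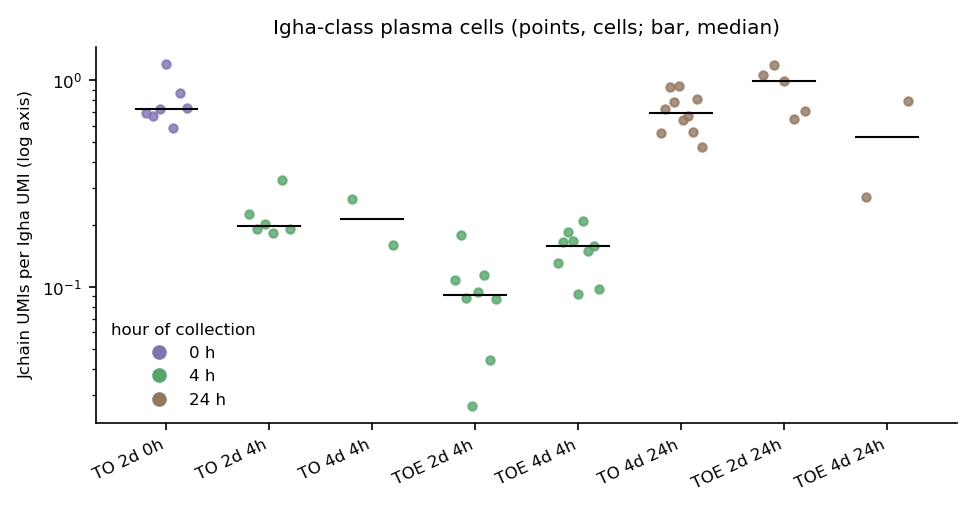
Jchain UMIs per Igha UMI in the 49 plasma cells of the Igha class, by library, on a log axis. Points are cells coloured by hour of collection and bars are medians. The 4 libraries taken at 4 h have medians of 0.0911 to 0.212 and the others of 0.530 to 0.997.

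In the same added fit, 12 of 1996 genes (0.601%) were called between 4 h and 0 or 24 h, 6 higher and 6 lower at 4 h, and all 12 are named here after their values were seen. The higher genes were the heat shock genes Hsph1 (log2 2.41, SE 0.30) and Bag3 (2.74, SE 0.42), the ribosomal protein genes Rpl4 (1.79, SE 0.23), Rpl23a (1.55, SE 0.20) and Rpl21 (1.24, SE 0.20), and Fam111a (5.10, SE 0.67). The lower genes were H3f3b (-2.45, SE 0.38), Tex14 (-1.99, SE 0.29), the MHC class II gene RT1-Db1 (-1.74, SE 0.29), the rRNA gene LOC120102105 (-1.68, SE 0.17), mitochondrial COX2 (-1.54, SE 0.21) and the V gene LOC108351309 (-5.45, SE 0.60). B cells of the same libraries had the same sign for each of the 12, and 9 of them were called there too, in a fit that called 4.91% of genes as higher and 6.37% as lower. A single cell of TO 4d 24h held 100 UMIs of the V gene, and a single cell of TOE 2d 24h held 75. Without a filter on low counts, 54 genes were higher and 126 lower. Leaving out single libraries gave 0 to 5 higher and 0 to 10 lower genes. With all 8 libraries 2 genes were higher and 0 lower, while Bag3 turned to -0.56 and Hsph1 had 0.58 (edgeR adjusted p = 0.796). Over the 8 libraries Hsph1 overlapped, with 163 to 1829 CPM at 4 h against 135 to 4433 CPM.

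The heavy chain classes differed in a few genes. In a fit added after the data were seen, Igha-class cells were compared with all other plasma cells in the 4 libraries with at least 2 of each. The others were not a single class. They mixed cells of LOC103692723, cells of LOC103690146 and cells without a class call, and in TO 2d 4h all 3 were of the last kind. Of 944 genes, 11 were higher in the Igha class (1.17%) and 0 lower. Rgs1, a regulator of G protein signalling, was 612 CPM on average against 41.8 CPM (log2 4.12, SE 0.66) and had a UMI in 33 of 49 Igha-class cells and in 2 of the 12 others. Runx2, a transcription factor, was 401 CPM against 49.6 CPM (log2 3.44, SE 0.63). The other 9 genes were Hcst, Pycard, Itm2b, Rbm7, Cnot6l, Egr1 and the heat shock genes Hsph1, Dnajb1 and Hspa1a, with log2 fold changes of 1.41 to 2.79. Without the cells with a high Scrublet score, 0 of 611 genes were called, with 67 higher and 19 lower at an unadjusted p under 0.05. DESeq2 called 11 higher with all cells. With edgeR, 4 were higher without the library block, and 4 of 890 in the 6 libraries with at least 1 cell of each.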

How the data were processed

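The matrices deposited by the authors hold raw UMI counts for each gene in each barcode, without normalization. The submitters' processing notes list Cell Ranger 9.0.0, Seurat, R 4.0.3 and the builds GRCh38 and mRatBN7.2 with no role. The libraries were made with 10x Genomics Chromium, a 3′ method whose counts do not scale with gene length. 41801 features were listed, of which 37533 matched RefSeq (GRCr8) by symbol or identifier, and gene names follow the files. How doublets were treated by the authors is not given in the sources used here. No cell type annotation was used, so the plasma cells, B cells and neutrophils may differ from those of the study.

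Doublets were scored per library with Scrublet (scanpy 1.11.5, expected rate 8%) and, with cells that carried other-lineage markers, left out in alternatives only. Cells are not replicates, so counts were summed per library and cell group, scaled by TMM and, after filterByExpr, tested with edgeR 4.0.16 (limma 3.58.1, R 4.3.3), adjusted by Benjamini-Hochberg over all genes. DESeq2 1.42.0, other member rules and comparison cells, no block, no filter, another library size and libraries left out were alternatives. Other values used Python 3.11.15, numpy 2.4.6, scipy 1.17.1 and pandas 2.3.3. Libraries of different conditions stood as replicates of the difference between cell types. In that fit p followed the normal tail of the log2 fold change over its SE, so the variance was shared across genes. The spread of a single gene between libraries thus had little weight. Col1a1, with SE 0.27, had 11702, 51.3 and 191 CPM in plasma cells of TO 4d 24h, TOE 2d 4h and TOE 4d 4h. The B cells of these libraries had 933, 37.2 and 290 CPM. CPM and intervals cover counting error only, at 95%. Named genes were the markers, the immunoglobulin constant genes and up to 4 genes with the smallest and 2 with the largest adjusted p of each list (not every one is printed). Outside immunoglobulin genes, the 10 largest rises and falls past an adjusted p of 0.05 with at least 50 CPM, and the 3 largest of each pair, were also named. The members and the gene lists were chosen with earlier results of these data known. The planned fits of TOE against TO and of IgA against IgM were not run, since no pair had 10 plasma cells in both libraries and no library had 5 cells of a second class. On simulated counts, 52.0% of 4-fold and 5.8% of 2-fold changes were recovered for plasma cells against B cells (11007 genes), and 79.8% and 17.2% for the hour within plasma cells (1999 genes), with 2.0 and 3.6 false calls a run. Sequences came from RefSeq promoters of GRCr8, which is not a build of the files, so no coordinates of the files were used.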

Additional observations from a re-analysis of the deposited data

Results flagged for a closer look

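The plasma cell share moved in opposite directions between the matched pairs of day 4. At 4 h it was 4.59 times as high in TOE as in TO (10 against 2 cells), and at 24 h it was 0.191 times as high (2 against 12 cells). The difference between these ratios was not tested, since each rests on 1 library per side.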

How the results depend on the processing

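The number of plasma cells was 54 to 74 under the other member rules, against 61. None of these rules dropped the Pax5 threshold, without which 161 cells met the rest of the rule. The geometric mean of the TOE to TO share ratios, 0.989, turned to 1.69 without Scrublet doublets and 1.13 without cells with other-lineage markers. Against B cells, the genes lower were 899 without the library block, 624 with DESeq2, 2392 with 6 libraries and 3467 with all 8 libraries. Leaving out libraries gave 656 to 1459 genes higher and 743 to 2295 lower, where the lowest counts, 656 and 743, came without TOE 4d 4h and the highest from 6 libraries (without TOE 2d 4h, 761 and 799). Fits of 5 or 6 libraries hold more samples, and the cause of the other shifts was not tested. Irf4 turned to -0.36 with Mzb1 of at least 1 UMI and -0.28 without a Derl3 minimum, fits that also held 4 and 5 libraries in place of 3. It turned to -0.046 without Scrublet doublets, -0.075 without a filter on low counts, -0.20 with 6 libraries and -0.34 with all, and ranged from -0.37 to 0.35 as libraries were left out. Sec63 turned to -0.055 without a Derl3 minimum (5 libraries) and ranged from -0.078 to 0.65 as libraries were left out. Col1a1 turned to -1.07 against all Cd79a-positive cells, -0.29 with all libraries and ranged from -0.52 (6 libraries less TO 4d 24h) to 3.01 as libraries were left out. Bag3 between hours turned to -0.56 with all libraries. Of 1457 values of 64 genes tracked against B cells, 1382 kept direction and call, 55 kept direction but lost the call, in 14 genes, and 20 changed sign. At this depth and number of libraries, 2-fold changes were seldom recovered in simulation.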

Other observations

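Il10 and Ccr9 were detected in part of the plasma cells. Il10, a regulatory cytokine, had a UMI in 19 of the 61 cells, with up to 33 UMIs in a cell, and a mean of 85.4 CPM in the 3 compared libraries against 7.28 CPM in B cells. Ccr9, a gut homing receptor, had a UMI in 9 cells with at most 4. Over all libraries Ccr9 was at 14.5 CPM in plasma cells, from 15 UMIs, against 0.479 CPM in B cells and 0.264 CPM in neutrophils, where it gives the background. Both genes were singled out after their values were seen.

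Igha was not restricted to the cells that met the rule. At least 100 Igha UMIs were counted in 103 cells, of which 49 were plasma cells by the rule. In TOE 2d 4h, 31 cells had at least 100 Igha UMIs and 8 of them met the rule. In TO 2d 4h these counts were 9 and 6. Whether the cells outside the rule were plasma cells was not tested, and 5 of them missed the Derl3 threshold alone.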
